A study of Mus musculus with 70 samples.

Results

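The FoxO transcription factors are the 4 forkhead genes *Foxo1*, *Foxo3*, *Foxo4* and *Foxo6*, chosen here by gene symbol. The RNA-seq table held all 4 among its 22835 genes, with 1 RefSeq transcript each (NM_019739, NM_019740, NM_018789 and NM_194060). All 4 passed the filter on low values (above 1 CPM, reads scaled to a fixed library total, in all 18 libraries) with 13145 genes in total. FoxO proteins bind DNA through a forkhead domain and act at the end of the insulin and IGF-1 pathway. When growth factor receptors activate PI3-kinase and the kinases AKT and SGK, FoxO proteins are phosphorylated, held by 14-3-3 proteins and kept out of the nucleus, and their target genes for cell cycle arrest, stress resistance, atrophy and fuel metabolism are less transcribed. *Foxo6* differs from the other members in that it shuttles less between nucleus and cytoplasm, and in the pituitary FOXO1 is known as a regulator of gonadotropin genes.

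The RNA came from whole pituitaries of adult male C57BL/6J mice that were wild type or *Thrb*-deficient (*Thrb*-KO), lacking the thyroid hormone receptor TRβ. All mice received methimazole (MMI) with perchlorate in the drinking water, which blocks thyroid hormone synthesis. The hypothyroid groups received nothing else, with 4 wild-type and 5 *Thrb*-KO libraries, and the hyperthyroid groups also received triiodothyronine (T3) in the final week, again with 4 and 5 libraries. The comparisons ask whether T3 changed RNA levels and whether TRβ was needed for the change. There was no untreated RNA group, so each T3 effect is a step from the hypothyroid to the hyperthyroid state. Each library was a pool of 3 pituitaries, so p-values measure the spread between pools. The knockout is in every cell of the mouse, and in whole pituitaries fewer cells of a type and less RNA per cell cannot be told apart. Sites on the genome came from TRβ-HAB ChAP-seq peaks of untreated pituitary and cerebral cortex, in which the tagged receptor of ThrbHAB/HAB; Rosa26BirA/BirA mice (HAB;BirA) is biotinylated and captured, with BirA mice as control. They also came from a list of T3-regulated ATAC-seq peaks in nuclei of Thrb2-positive pituitary cells from hypothyroid and hyperthyroid Rosa26Sun1-GFP; Thrb2-Cre mice.

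The libraries held 21453548 to 55273749 reads (median 34673225). Replicates 1 and 2 of every group formed a set apart from replicates 3 to 5, as shown by *Lars2* at 2571 to 3420 CPM against 53.2 to 95.1 CPM, so FoxO differences are also given within each set. Hyperthyroid wild-type replicate 3 stood apart within its group. Its highest correlation to a library of its group was 0.988, beside 0.992 to 0.998 for the rest of the group. The growth hormone gene *Gh* was at 159094 CPM in it, beside 87356 to 112135 CPM in the rest. Its TMM factor, an edgeR scaling for library composition, was 0.837, beside 0.972 to 1.05 in all other libraries. The main limma test used CPM without that scaling. *Foxo6* results and the T3 responses of *Foxo1* and *Foxo3* are also given without that replicate. In hypothyroid mice *Thrb* transcripts did not check the genotype, since the *Thrb*-KO libraries kept 271 ± 20.1 CPM (SD, n = 5), beside 257 ± 27.3 CPM in wild type (SD, n = 4). In hyperthyroid mice *Thrb* was at 260 ± 32.0 CPM in *Thrb*-KO (SD, n = 5) and 104 ± 22.8 CPM in wild type (SD, n = 4). Its T3 difference on the log2 scale was −1.32 in wild type (limma adjusted p 1.27e-06), past 1.5-fold, and −0.06 in *Thrb*-KO. *Thra*, the other T3 receptor gene, had T3 differences of −0.44 in wild type (limma adjusted p 0.00305) and −0.13 in *Thrb*-KO (limma adjusted p 1.00), neither past 1.5-fold. All 14 pituitary endocrine marker genes exceeded 1 CPM in every library, and so did 6 of 7 neural and glial markers.

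*Foxo6* was the 1 FoxO gene of 4 that rose with T3, in both genotypes, and less so without TRβ. In hypothyroid wild-type libraries 1 to 4 it was at 7.73, 7.99, 5.62 and 4.02 CPM. In the 4 hyperthyroid wild-type libraries it was at 40.6, 33.0, 26.6 and 37.3 CPM. The lowest hyperthyroid library lay above the highest hypothyroid library by more than the whole range of the hypothyroid group. In hypothyroid *Thrb*-KO libraries 1 to 5 *Foxo6* was at 8.71, 10.96, 10.3, 10.3 and 8.86 CPM. In the 5 hyperthyroid *Thrb*-KO libraries it was at 25.3, 20.6, 21.4, 19.9 and 25.5 CPM. The order of the 4 groups was thus hypothyroid wild type, hypothyroid *Thrb*-KO, hyperthyroid *Thrb*-KO and hyperthyroid wild type, with no overlap between neighbours in that order. These values rested on 111 to 1806 recovered reads per library.

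The group means were 6.34 ± 1.87 and 34.4 ± 6.03 CPM in wild type (SD, n = 4) and 9.83 ± 0.992 and 22.5 ± 2.65 CPM in *Thrb*-KO (SD, n = 5). On the scale of log2(CPM + 1), *Foxo6* rose by 2.29 ± 0.16 in wild type (SE; 95% interval 1.95 to 2.64), or 4.89-fold, with a limma adjusted p of 8.95e-09. Fold changes from limma are ratios of CPM + 1 throughout, not of CPM. A gene was called when its adjusted p was under 0.05 and its change at least 1.5-fold, and T3 called 9.46% of all genes in wild type, with 3.87% of all genes upward and 17.4% without overlap between the groups. Of the 13145 genes tested, 20 (0.152%), *Foxo6* among them, were called upward with a change at least as large as that of *Foxo6*. Genes not above 1 CPM in all 18 libraries were outside that count. With CPM above 1 in at least 4 libraries, 620 genes were called upward, beside 509 here. In *Thrb*-KO mice *Foxo6* rose by 1.12 ± 0.15 (SE; 0.81 to 1.42), or 2.17-fold, with a limma adjusted p of 1.35e-04, where 1.01% of genes were called, 0.411% upward, and 5.58% showed no overlap. There, 13 genes (0.0989%), *Foxo6* among them, were called with a rise at least as large. The exact two-sided permutation test on *Foxo6* alone gave p = 0.0286 in wild type and p = 0.00794 in *Thrb*-KO, each the smallest value that the number of libraries allows.

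The 2 responses of *Foxo6* differed. The *Thrb*-KO response minus the wild-type response was −1.17 ± 0.22 on the log2 scale (SE; −1.64 to −0.71), with a limma adjusted p of 0.00272, in a comparison that called 4.26% of genes, 1.78% in that direction. A reduction at least as large was called for 61 genes (0.464%), *Foxo6* among them. The rise was called within each library set, at 2.09 in replicates 1 and 2 and 2.50 in replicates 3 and 4 of wild type, and at 1.15 in replicates 1 and 2 and 1.10 in replicates 3 to 5 of *Thrb*-KO. The difference between the responses was called in both sets too, at −0.94 in the first and −1.40 in the second. Without hyperthyroid wild-type replicate 3 the wild-type response was 2.40 and the difference −1.29.

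**Figure D1:**
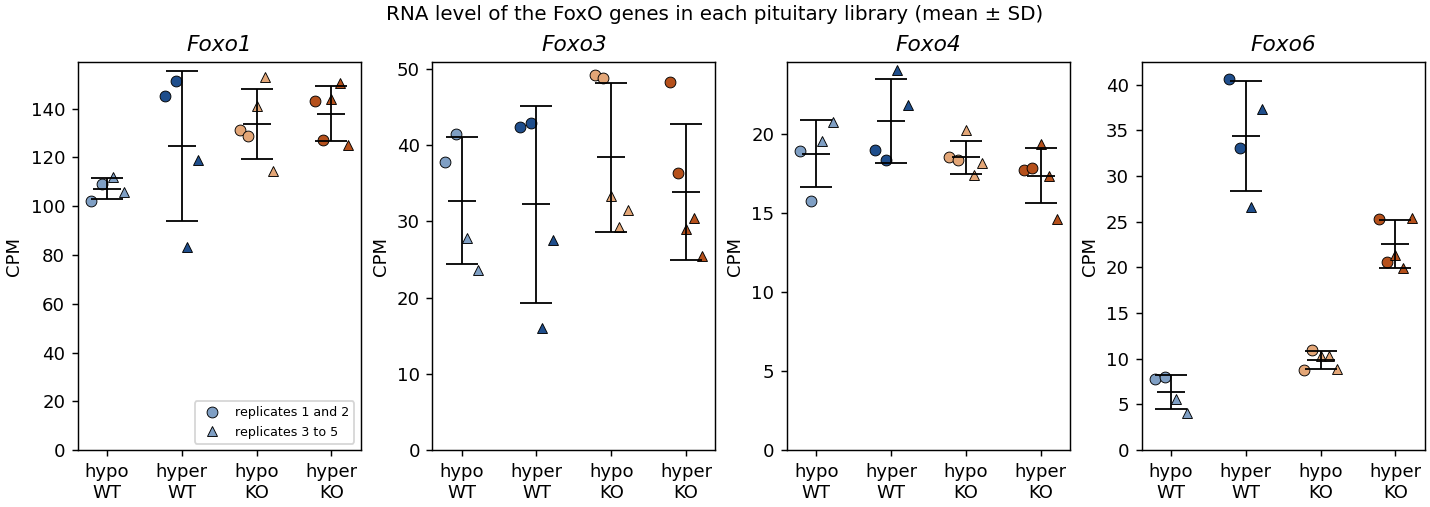
RNA level of *Foxo1*, *Foxo3*, *Foxo4* and *Foxo6* in CPM (linear axis from 0) in each of the 18 pituitary libraries, by thyroid state and genotype; circles are replicates 1 and 2, triangles replicates 3 to 5, and bars mean ± SD. The 4 groups of *Foxo6* do not overlap, from 4.02 CPM in hypothyroid wild type to 40.6 CPM in hyperthyroid wild type, while for *Foxo3* the circles lie above the triangles in all 4 groups.

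Between genotypes, *Foxo6* was higher without TRβ in hypothyroid mice and lay lower without it in hyperthyroid mice, close to the 1.5-fold limit in both states. In hypothyroid mice every *Thrb*-KO library lay above every wild-type library, and *Foxo6* was 0.59 higher on the log2 scale (SE 0.16; 95% interval 0.27 to 0.92), or 1.51-fold, with a limma adjusted p of 0.0251. This comparison called 3.02% of genes, with 1.01% higher in *Thrb*-KO, and 14.3% of genes had groups that did not overlap. In hyperthyroid mice every *Thrb*-KO library lay below every wild-type library, with a log2 difference of −0.58 (SE 0.16; −0.91 to −0.25) and a limma adjusted p of 0.0182. That change fell just short of the 1.5-fold limit and was not called, in a comparison that called 4.86% of genes, with 2.32% lower in *Thrb*-KO, and left 11.3% without overlap. With the replicate number as a block, the hyperthyroid value was −0.59 with a limma adjusted p of 0.0119 and was called. The exact two-sided permutation p for *Foxo6* was 0.0159 in each state, the smallest possible for 4 against 5 libraries.

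Neither genotype difference of *Foxo6* was called in both library sets. The hypothyroid difference was 0.28 in replicates 1 and 2 (limma adjusted p 0.201) and 0.91 in replicates 3 to 5 (limma adjusted p 0.0080, called). The hyperthyroid difference was −0.66 in the first set (limma adjusted p 0.00202, called) and −0.49 in the second (limma adjusted p 0.0627). The hyperthyroid difference was called at −0.69 without hyperthyroid wild-type replicate 3, at −0.59 without replicate 2 of that group, and at −0.62 without hyperthyroid *Thrb*-KO replicate 1 or replicate 5. The hypothyroid call was lost without hypothyroid wild-type replicate 4, with a difference of 0.42 and a limma adjusted p of 0.107. It was also lost without hypothyroid wild-type replicate 3 (0.56) and without hypothyroid *Thrb*-KO replicate 2 (0.56), replicate 3 (0.58) or replicate 4 (0.58), with limma adjusted p values of 0.060 to 0.079.

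*Foxo6* lies at chr4:119939684-119959954 on the minus strand (mm9) and spans 20271 bp. The nearest coding genes are *Edn2*, which encodes endothelin 2, at 99719 bp, and *Scmh1*, a Polycomb-group gene, at 117932 bp. *Edn2* was close to 0 in every group, with group means of 0.0684 to 0.168 CPM. *Scmh1* had a T3 difference of 0.26 ± 0.10 in wild type (SE; limma adjusted p 0.0934) and was not called. Of the 8051 pituitary TRβ peaks, 7 lay within 20 kb of *Foxo6*, a number reached by 48 of 12582 placed genes (0.381%). A pituitary peak within 20 kb was found for 41.6% of those genes and for 1 of the 4 FoxO genes. A cortex peak was found for 35.2% of genes and 2 FoxO genes, and a T3-regulated ATAC peak for 7.84% of genes and 1 FoxO gene.

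The strongest of these peaks, at chr4:119950251-119950700, held 101 reads from HAB;BirA and 4 from the control, and only 1.25% of pituitary peaks had at least as many. The next, at chr4:119949651-119950150, held 66 against 5 reads. A single T3-regulated ATAC peak at chr4:119949827-119950639 overlapped both, and all 3 lie in an intron of *Foxo6*. Further intronic peaks nearer the start of the gene held 16 reads against 0 and 12 reads against 1. Outside the gene, peaks of 24, 16 and 13 reads lay 3197 bp upstream, 13934 bp downstream and 17934 bp downstream, beside a median of 18 reads over all pituitary peaks. A peak of 53 against 6 reads lay farther out, 36734 bp downstream at chr4:119902551-119902950. These reads were merged over the libraries of a genotype by the authors, so they carry no replicate spread and no test.

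In untreated cerebral cortex 2 TRβ peaks lay within 20 kb of *Foxo6*, with 9 and 16 reads and no control reads. Both overlapped pituitary peaks, those 17934 bp downstream and 3197 bp upstream. The 4 intronic pituitary peaks overlapped no cortex peak. Reads were counted without normalization in merged libraries of each tissue, so their numbers are not compared between the tissues.

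TRβ binds direct repeats of the half-site AGGTCA with a spacer of 4 bases (DR4), and the sequences below show the closest matches in the peaks around *Foxo6*. The search took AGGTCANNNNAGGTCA on both strands and allowed 2 differences in the 12 repeat bases. Each sequence is read 5′ to 3′ on the strand of the repeat, with the 2 half-sites in capitals and 30 bases on either side. Positions in the repeat are counted from 1 at its 5′ end.
*Foxo6* intron, strongest peak, chr4:119950434-119950509, plus strand: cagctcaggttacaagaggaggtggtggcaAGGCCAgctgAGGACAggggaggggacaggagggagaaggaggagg
*Foxo6* distal downstream peak, chr4:119902655-119902730, minus strand: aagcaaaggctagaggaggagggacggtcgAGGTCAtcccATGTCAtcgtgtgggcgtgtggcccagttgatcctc
*Foxo6* near downstream peak, chr4:119925700-119925775, plus strand: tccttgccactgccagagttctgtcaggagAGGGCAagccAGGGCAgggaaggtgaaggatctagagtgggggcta

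The intronic repeat matched 10 of 12 bases (T4C, T14A) and lay in both the TRβ peak of 101 reads and the ATAC peak. The distal downstream repeat matched 11 of 12 bases (G12T), the closest match in any peak within 100 kb of a FoxO gene. The near downstream repeat matched 10 of 12 (T4G, T14G). Such a match is common, as 20.9% of all pituitary peaks and 30.9% of ATAC peaks held one. Among pituitary peaks of the same length as each of the 3, the shares were 29.6%, 22.9% and 20.3%. The intronic peak of 66 reads held no match at 2 differences. A match describes letters in the peak, not a tested site.

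**Figure D2:**
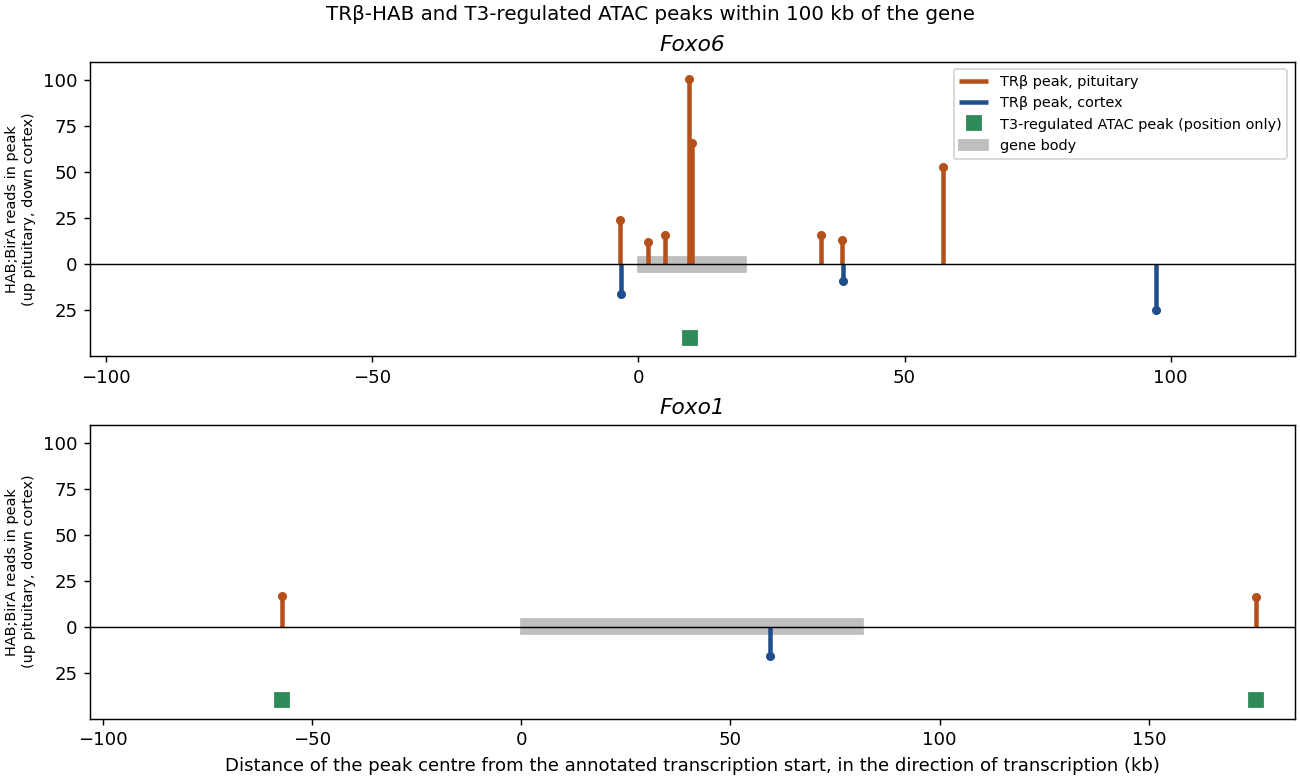
TRβ peaks within 100 kb of *Foxo6* and *Foxo1*, placed by distance from the start site in kb along the direction of transcription; stem height is the number of HAB;BirA reads in the peak (linear axis, pituitary upward, cortex downward), squares mark T3-regulated ATAC peaks by position only, and the grey band is the gene body. The tallest stems, 101 and 66 reads, stand together inside *Foxo6* over its ATAC peak, and no pituitary stem stands inside *Foxo1*.

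*Foxo1* was the most abundant FoxO transcript and showed no called T3 effect. Its levels in hypothyroid wild-type libraries were 102, 109, 112 and 106 CPM. In hyperthyroid wild-type libraries they were 145, 151, 83.5 and 119 CPM, so that the low replicate 3 widened the group and made it overlap the hypothyroid range. These CPM are not scaled by the TMM factor, which was 0.837 for that replicate. In hypothyroid *Thrb*-KO libraries *Foxo1* was at 131, 129, 141, 153 and 115 CPM, all above the hypothyroid wild-type values. In hyperthyroid *Thrb*-KO libraries it was at 143, 127, 144, 150 and 125 CPM, inside the hyperthyroid wild-type range.

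The T3 difference of *Foxo1* was 0.18 in wild type (95% interval −0.12 to 0.47; limma adjusted p 0.473) and 0.05 in *Thrb*-KO (−0.22 to 0.31; limma adjusted p 1.00). It had opposite signs in the 2 library sets of wild type, at 0.49 in replicates 1 and 2 and −0.13 in replicates 3 and 4. Without hyperthyroid wild-type replicate 3 it was 0.36 with a limma adjusted p of 0.0140, still under 1.5-fold. In hypothyroid mice *Foxo1* was 0.31 higher in *Thrb*-KO (0.03 to 0.59), which did not pass across all genes (limma adjusted p 0.211). The libraries did not overlap, as was so for 14.3% of all genes in this comparison. The exact two-sided permutation p for *Foxo1* alone was 0.0159, the smallest possible for 4 against 5 libraries.

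*Foxo1* lies at chr3:52072259-52154031 on the plus strand and spans 81773 bp. No pituitary TRβ peak lay within 20 kb of it. The nearest were a peak of 17 against 1 reads 56959 bp upstream, at chr3:52014951-52015300, and one of 16 against 2 reads 93670 bp downstream. Each overlapped a T3-regulated ATAC peak. In cortex an intronic peak at chr3:52131401-52132250 held 16 against 2 reads. The upstream site, shared by TRβ and ATAC peaks, and the cortex site held these repeats, with half-sites in capitals as before.
*Foxo1* upstream, pituitary TRβ and ATAC peak, chr3:52014928-52015003, plus strand: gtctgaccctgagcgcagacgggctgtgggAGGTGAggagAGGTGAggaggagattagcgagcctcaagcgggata
*Foxo1* intron, cortex TRβ peak, chr3:52131428-52131503, minus strand: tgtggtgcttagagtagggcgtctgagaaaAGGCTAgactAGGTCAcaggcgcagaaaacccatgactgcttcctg

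The upstream *Foxo1* repeat had the same change in both half-sites (C5G, C15G), and the cortex repeat had both changes in 1 half-site (T4C, C5T). A match of this kind was held by 19.0% of pituitary peaks of the upstream peak's length and by 12.2% of cortex peaks of the intronic peak's length. The neighbour *Maml3*, which encodes a Notch co-activator 163446 bp away, had a T3 difference of 0.08 ± 0.21 in wild type (SE; limma adjusted p 0.878).

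*Foxo3* followed the library set more than the conditions. It was at 37.8, 41.5, 27.8 and 23.6 CPM in hypothyroid wild type. In hyperthyroid wild type it was at 42.4, 42.9, 16.1 and 27.5 CPM. In both groups replicates 1 and 2 were the high ones. In hypothyroid *Thrb*-KO it was at 49.2, 48.7, 33.3, 29.2 and 31.5 CPM. In hyperthyroid *Thrb*-KO it was at 48.2, 36.3, 28.9, 30.5 and 25.4 CPM. Over all groups *Foxo3* ranged from 36.3 to 49.2 CPM in replicates 1 and 2 and from 16.1 to 33.3 CPM in replicates 3 to 5. Of all genes, 16.6% had replicates 1 and 2 above the others in all 4 groups, and *Foxo3* was the 1 FoxO gene among them.

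The T3 difference of *Foxo3* was −0.08 in wild type (95% interval −0.66 to 0.50; limma adjusted p 0.905) and −0.18 in *Thrb*-KO (−0.69 to 0.34; limma adjusted p 1.00). Within the sets of wild type it was 0.11 and −0.27, and without hyperthyroid wild-type replicate 3 it was 0.20. Both intervals hold 0 and reach past 1.5-fold lower, so these libraries leave the response of *Foxo3* undetermined at that size. The gene lies at chr10:41901647-41996561 on the minus strand, next to *Lace1* at 35830 bp and *Armc2* at 163399 bp. No pituitary TRβ or ATAC peak was listed within 100 kb of *Foxo3*. A cortex peak of 10 against 1 reads lay at chr10:41809201-41809650, nearer to *Foxo3* than 100 kb but closer to *Armc2*.

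*Foxo4* varied little between the groups. Its levels were 18.9, 15.7, 19.5 and 20.7 CPM in hypothyroid wild type. They were 18.9, 18.3, 24.0 and 21.8 CPM in hyperthyroid wild type. They were 18.5, 18.3, 20.2, 17.4 and 18.1 CPM in hypothyroid *Thrb*-KO, and 17.7, 17.8, 19.3, 17.3 and 14.6 CPM in hyperthyroid *Thrb*-KO. All 4 groups overlapped, and the widest gap lay between the hyperthyroid groups.

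The T3 difference of *Foxo4* was 0.14 in wild type (95% interval −0.08 to 0.36; limma adjusted p 0.439) and −0.09 in *Thrb*-KO (−0.29 to 0.10; limma adjusted p 1.00), both intervals within 1.5-fold of no change. In hyperthyroid mice *Thrb*-KO minus wild type was −0.24 for *Foxo4* (−0.45 to −0.04; limma adjusted p 0.128; exact two-sided permutation p 0.0476 for *Foxo4* alone) and was not called. That difference was −0.07 in replicates 1 and 2 and −0.41 in replicates 3 to 5. *Foxo4* lies at chrX:98449867-98456212 on the plus strand, 503 bp from *Gm614* and 31965 bp from *Snx12*. No TRβ or ATAC peak of any list lay within 100 kb of *Foxo4*, a distance at which 70.9% of genes had a pituitary peak, 63.1% a cortex peak and 18.4% an ATAC peak.

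**Figure D3:**
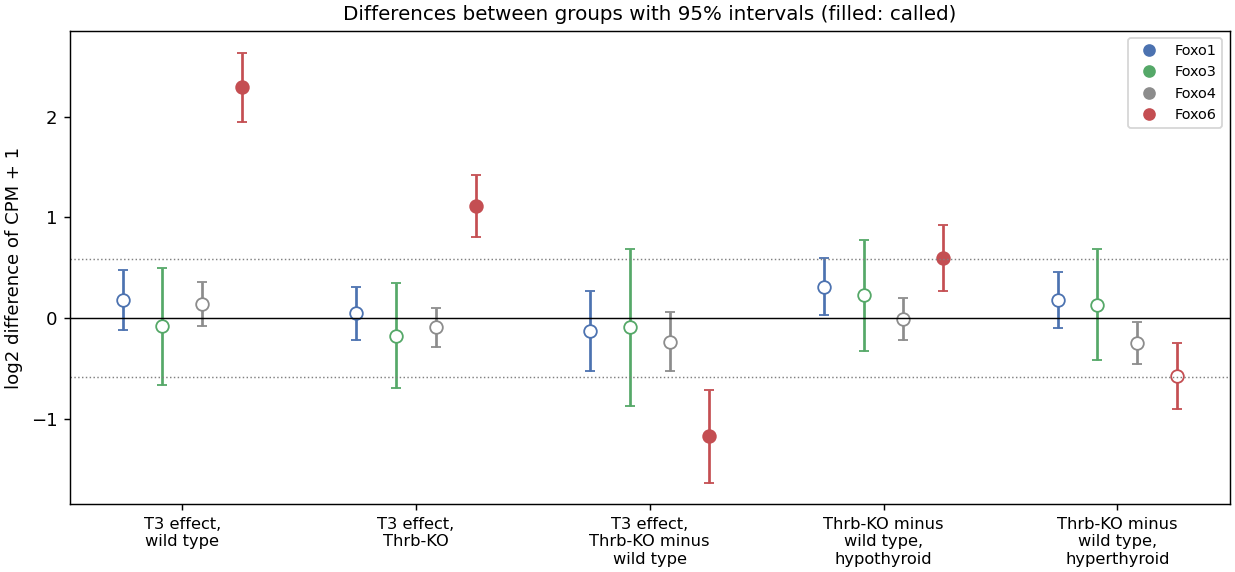
Differences between groups for the 4 FoxO genes on the log2(CPM + 1) scale with 95% intervals from limma, for the T3 effect in each genotype, its difference between genotypes, and *Thrb*-KO minus wild type in each thyroid state; filled points were called and dotted lines mark 1.5-fold. *Foxo6* has the 4 filled points, from 2.29 for T3 in wild type to −1.17 for the difference of responses, while in the 2 genotype columns its intervals overlap those of other FoxO genes.

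Because the genes differ in length, their levels were compared per kb of the longest annotated coding transcript (5552 bases for *Foxo1*, 6848 for *Foxo3*, 3162 for *Foxo4* and 2615 for *Foxo6*). Per kb, *Foxo1* led in every group with mean levels of 19.3 to 24.9 CPM per kb. In hypothyroid wild type the order below it was *Foxo4* at 5.92, *Foxo3* at 4.77 and *Foxo6* at 2.42 CPM per kb. In hyperthyroid wild type *Foxo6* was second at 13.2 CPM per kb, above *Foxo4* at 6.57 and *Foxo3* at 4.70. *Foxo6* was also second in hyperthyroid *Thrb*-KO at 8.61 CPM per kb and last in hypothyroid *Thrb*-KO at 3.76. The levels of *Foxo3* and *Foxo4* per kb overlapped between libraries in all 4 groups and were not tested against each other.

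*Foxo6* made up 7.42 ± 1.97% of the summed FoxO level per kb in hypothyroid wild type (range 5.02 to 9.05%) and 28.2 ± 2.69% in hyperthyroid wild type (24.3 to 30.6%; SD, n = 4). In *Thrb*-KO the share was 9.57 ± 0.765% in hypothyroid and 19.7 ± 2.64% in hyperthyroid mice (SD, n = 5). The share of *Foxo1* was 59.6 ± 3.05% and 47.4 ± 4.10% in the wild-type groups. The summed level was 32.4 ± 1.31 and 46.9 ± 8.39 CPM per kb in wild type and 39.3 ± 2.81 and 43.9 ± 2.93 CPM per kb in *Thrb*-KO. These shares depend on the transcript lengths used, which are annotated rather than measured.

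Of 21 genes upstream of FoxO (insulin and IGF-1 receptors, their adaptors, PI3-kinase subunits and the AKT and SGK kinases), 20 were tested and 3 were called for T3 in wild type, or 15.0% beside 9.46% of all genes. The median T3 difference of the list was 0.07, beside −0.04 for all genes. *Akt2*, a kinase that phosphorylates FoxO proteins, rose from 21.9 ± 0.610 to 45.5 ± 7.79 CPM (SD, n = 4), by 1.01 ± 0.10 on the log2 scale (SE; limma adjusted p 1.05e-06). *Sgk1*, another kinase of FoxO proteins, rose from 15.2 ± 1.05 to 26.3 ± 7.10 CPM (SD, n = 4), by 0.72 ± 0.17 (SE; limma adjusted p 0.00409). *Irs1*, an adaptor of the insulin receptor, fell from 38.2 ± 9.37 to 21.5 ± 6.21 CPM (SD, n = 4), with a log2 change of −0.81 ± 0.20 (SE; limma adjusted p 0.00747). The other 17 had values between −0.44 and 0.39, among them *Insr* at −0.07, *Igf1r* at 0.30 and *Akt1* at 0.09.

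In *Thrb*-KO limma called no upstream gene for T3, where 1 had an unadjusted p under 0.05 and edgeR and DESeq2 called 0. *Akt2* had a T3 difference of 0.49 there with a limma adjusted p of 0.00550, under 1.5-fold. *Sgk1* was at 13.8 CPM in both *Thrb*-KO groups. The difference between the responses was called for no upstream gene by limma, while 3 had an unadjusted p under 0.05, edgeR and DESeq2 each called 2, and limma with the replicate block called 2. The 2 with the block were *Sgk1* at −0.73 (limma adjusted p 0.0297, beside 0.0679 without it) and *Irs1* at 0.66 (limma adjusted p 0.00411, beside 0.233). For *Akt2* the difference was −0.52 (limma adjusted p 0.0365), under 1.5-fold. In hyperthyroid mice *Sgk1* was lower in *Thrb*-KO, with a log2 difference of −0.87 (limma adjusted p 9.98e-04), and so was *Pik3cd*, a PI3-kinase subunit found mainly in leukocytes, at −0.62 (limma adjusted p 0.00215). In hypothyroid mice *Pik3cd* differed by −0.55 (limma adjusted p 0.00876), under 1.5-fold. Immune markers moved the same way, with 2 of 4 tested called lower in hypothyroid and 1 in hyperthyroid mice by limma, and 4 and 3 by edgeR and by DESeq2. Their sums were 55.7 to 67.1 CPM in hypothyroid wild type and 31.8 to 40.8 CPM in hypothyroid *Thrb*-KO, and 44.2 to 80.7 CPM in hyperthyroid wild type and 33.6 to 46.6 CPM in hyperthyroid *Thrb*-KO, and their part in the *Pik3cd* result was not tested.

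Among 27 genes for partners and modifiers of FoxO proteins (14-3-3 proteins, acetylases and deacetylases, ubiquitin ligases and stress kinases), all were tested and 1 was called for T3 in wild type, or 3.70%. It was *Setd7*, a lysine methyltransferase reported to act on FOXO3, which rose from 213 ± 52.4 to 449 ± 105 CPM (SD, n = 4), by 1.08 ± 0.20 (SE; limma adjusted p 7.17e-04). In *Thrb*-KO its T3 difference was 0.30 and was not called. The difference between the responses of *Setd7* was −0.77 with a limma adjusted p of 0.126, and was called with the replicate block at a limma adjusted p of 5.13e-04. The median T3 difference of the list in wild type was −0.06, and the 14-3-3 genes ranged from −0.34 for *Ywhag* to 0.35 for *Ywhah*, none called. In *Thrb*-KO limma, edgeR and DESeq2 called 0 of the list and 0 had an unadjusted p under 0.05.

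Of 38 genes described as FoxO targets, 31 were tested and 3 were called for T3 in wild type, or 9.68%, close to the 9.46% of all genes. The median was 0.11, beside −0.04 for all genes. *Gadd45a*, a growth arrest and DNA damage gene, rose from 15.1 ± 3.17 to 41.2 ± 4.05 CPM (SD, n = 4), by 1.41 ± 0.17 (SE; limma adjusted p 6.18e-06). *Fbxo32*, which encodes the muscle ubiquitin ligase atrogin-1, rose from 45.5 ± 3.92 to 86.1 ± 20.9 CPM (SD, n = 4), by 0.88 ± 0.14 (SE; limma adjusted p 1.50e-04). *Pdk4*, a kinase that restrains pyruvate oxidation, fell from 21.1 ± 8.39 to 10.8 ± 3.86 CPM (SD, n = 4), with a log2 change of −0.88 ± 0.25 (SE; limma adjusted p 0.0155). Among widely used FoxO targets, *Sesn1* at 0.20, *Sod2* at 0.13, *Cat* at 0.25 and *Cdkn1b* at 0.30 were not called, nor were *Bnip3* at −0.27, *Sesn2* at −0.25 and *Ccng2* at −0.13. The pro-apoptotic gene *Bbc3* at −0.57 (limma adjusted p 0.00856) and the cyclin gene *Ccnd1* at −0.45 (limma adjusted p 0.00128) passed on p and not on fold. In the other direction, so did *Ppargc1a* at 0.45 (limma adjusted p 0.0251). The gonadotropin genes *Fshb* at −0.18 and *Lhb* at 0.22 were not called.

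The responses of 2 targets differed between genotypes, or 6.45% of 31 beside 4.26% of all genes, with a median difference of −0.11 beside 0.04 for all genes. *Gadd45a* was at 22.3 and 31.0 CPM in hypothyroid and hyperthyroid *Thrb*-KO, and the *Thrb*-KO response minus the wild-type response was −0.93 ± 0.23 (SE; limma adjusted p 0.020). In replicates 3 to 5 alone that value was −0.78 and lost its call, with a limma adjusted p of 0.224. *Fbxo32* was at 50.2 and 51.0 CPM in the *Thrb*-KO groups, and the corresponding difference was −0.86 ± 0.19 (SE; limma adjusted p 0.00892). In hyperthyroid mice *Fbxo32* was lower in *Thrb*-KO than in wild type, with a log2 difference of −0.72 (limma adjusted p 0.00108), the 1 target called there. In *Thrb*-KO limma, edgeR and DESeq2 called none of the 31 targets for T3, while 5 had an unadjusted p under 0.05. Between hypothyroid genotypes limma called 0 targets, 8 had an unadjusted p under 0.05, edgeR called 0, DESeq2 called 1 and limma with the replicate block called 3, *Gadd45a* at 0.62, *Trp53inp1* at 0.61 and *Pdk4* at −0.66. *Trp53inp1*, a stress-response gene, was also called with the block for T3 in wild type at 0.64 (limma adjusted p 5.08e-04, beside 0.0608 without it) and in the difference at −0.67 (limma adjusted p 0.0108, beside 0.316).

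TRβ peaks lay within 20 kb of 6 of these 7 called pathway genes in pituitary. *Akt2* had 3 peaks (up to 100 reads), *Fbxo32* had 2 (up to 105 reads) and *Gadd45a* had 1 of 96 reads. *Setd7* had 3 peaks of up to 49 reads, while *Sgk1* and *Pdk4* had 1 each of 24 and 17 reads. *Irs1* had no peak within 20 kb. T3-regulated ATAC peaks lay within 20 kb of *Akt2*, *Setd7* and *Pdk4*, beside 7.84% of all genes. These 7 genes were picked by their T3 call, and peaks near all T3-called genes were not counted for comparison. A pituitary peak was near 12 of 20 upstream genes (60.0%), 14 of 27 partners (51.9%) and 16 of 31 targets (51.6%), beside 41.6% of all genes. A cortex peak was near 45.0%, 51.9% and 48.4% of these lists, beside 35.2% of all genes.

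The other forkhead genes had smaller T3 effects than *Foxo6*. Of 40 other forkhead genes 15 were tested, and limma called 0 for T3 in wild type, where 2 had an unadjusted p under 0.05 and edgeR and DESeq2 each called 1, *Foxn2*. The wild-type T3 difference of *Foxn2* was 0.53 ± 0.21 (SE; limma adjusted p 0.0973). In *Thrb*-KO limma and edgeR called 0, 1 gene had an unadjusted p under 0.05, and DESeq2 called 1, *Foxm1*, a proliferation factor with a limma value of 0.56 and an adjusted p of 0.0587. In hyperthyroid mice *Foxn2* was lower in *Thrb*-KO, with a log2 difference of −0.64 (limma adjusted p 0.0445). With the replicate block that value was −0.58 and was not called, while *Foxm1* was called in the difference of responses at 0.65 (limma adjusted p 0.0428). A pituitary peak lay within 20 kb of 4 of the 15 (26.7%), beside 41.6% of all genes. Of these, *Foxn3*, had 7 such peaks and an ATAC peak, the same numbers as *Foxo6*, with a T3 difference of 0.56 in wild type that was not called.

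The genes whose levels ran most like each FoxO gene were found by Pearson correlation of log2(CPM + 1) over the 18 libraries, after centring within each library set. The points share libraries, treatments and depth, so the values are a description. For *Foxo6* they were *C1qtnf1* (r = 0.981), *Slc6a11* (0.980) and *Ung* (0.978). *C1qtnf1*, a secreted C1q/TNF-family protein, had T3 differences of 2.20 in wild type and 1.20 in *Thrb*-KO, beside 2.29 and 1.12 for *Foxo6*. *Slc6a11*, a GABA transporter, had 2.64 and 1.01, and *Ung*, a uracil-DNA glycosylase, had 1.48 and 0.66. For *Foxo1* the 3 were *Ogdh* (0.924), *Zfp407* (0.922) and *Eif4g3* (0.919), and for *Foxo3* they were *D930015E06Rik* (0.927), *Khnyn* (0.918) and *Mtmr3* (0.916). *Foxo4* had weaker partners in *Glul* (0.830), *C1ra* (0.816) and *Ddit3* (0.803). Between FoxO genes the highest value was 0.725 for *Foxo1* and *Foxo3*, while *Foxo6* had 0.313 with *Foxo1*, −0.168 with *Foxo3* and 0.07 with *Foxo4*.

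Markers of cell types moved in both directions with T3. Summed neural and glial markers ranged from 509 to 584 CPM in hypothyroid wild type and from 185 to 259 CPM in hyperthyroid wild type, and from 357 to 393 and 297 to 308 CPM in the *Thrb*-KO groups. Those sums are mostly *Syt1*, whose group mean was 493 CPM in hypothyroid and 159 CPM in hyperthyroid wild type. Of the 6 tested, 1 was called for T3 in wild type, *Syt1* at −1.65, while the list median was 0.16, on the side of *Foxo6*. Summed endocrine markers ranged from 69997 to 98629 CPM in hypothyroid and 107889 to 224611 CPM in hyperthyroid wild type, and from 77313 to 93939 and 109669 to 136951 CPM in *Thrb*-KO, sums carried by *Gh* and *Prl*. Over the 14 endocrine genes the median T3 difference in wild type was −0.003, with *Gh* and *Prl* called higher and *Tshb* and *Cga* called lower. Red blood cell markers summed to 49.3 to 90.1 CPM in hypothyroid and 111 to 126 CPM in hyperthyroid wild type, with 0 of 4 called. Stem and folliculostellate markers summed to 58.5 to 65.3 and 68.6 to 76.8 CPM in those groups, with 0 of 4 tested called. The *Thrb*-KO groups of both lists overlapped between thyroid states. The endothelial sums overlapped between thyroid states in both genotypes, as did the immune and stromal sums, although the stromal gene *Col1a1* was called lower for T3 in wild type at −0.73 (limma adjusted p 0.0143), 1 of 5 in that list. The part of these shifts in the *Foxo6* result was not tested.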

How the data were processed

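RNA-seq covered 18 pituitary libraries in 4 groups. The authors mapped single-end reads to RefSeq transcripts of mm9 with BBMap and deposited CPM per transcript, of which 29082 transcripts of 22835 genes were read, with 0 sample columns left out. The values were not divided by length, and single-end counting can split reads between paralogs. For each peak the authors deposited the count of HAB;BirA and of control reads from merged libraries, their ratio as a scaled fold, and a p-value and false discovery rate from SICER. The ATAC list holds the authors' adjusted p-value without direction or fold, and that value was not used. ChAP-seq of treated mice and histone ChIP-seq were not analysed here. The label of the BirA control libraries gives the HAB;BirA genotype, and they were taken as controls only through the authors' merged columns. The methods give a mixed strain background for the HAB;BirA and Sun1-GFP mice.

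The CPM steps gave whole reads for 100% of values (tolerance 0.05 reads). A test on counts or CPM had been planned, and since the table holds CPM the highest transcript per gene, with CPM above 1 in all 18 libraries, was tested with limma 3.58.1 (R 4.3.3) on log2(CPM + 1), in 1 model of the 4 groups with a trended prior, with Benjamini-Hochberg adjustment over 13145 genes. Single genes were also tested with an exact permutation test. The scripts were tested on simulated data. Same-numbered libraries deviated together in 25 of 25 pairs (r of deviations 0.130 to 0.815, median 0.529). The numbers follow the library sets, and libraries of unequal number were not compared. These values therefore cannot tell pairing by number from the library sets, and the replicate block was run as an alternative only. The main test held no term for the library sets. With the library set as a term, 769 genes were called in the difference of responses, beside 560 without it. For T3 in wild type the numbers were 1298 and 1244. Other alternatives were edgeR 4.0.16 and DESeq2 1.42.0 on recovered reads, other scalings, pseudocounts and filters, the study's unadjusted 2-group test, each library set alone and each library left out. The counts of the FoxO lists under these alternatives were added after seeing the data.

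Genes were placed with GENCODE annotation of mm9, which gave 12582 tested genes a position, and transcript lengths came from the same source. A peak was near a gene within 20 kb of its body. Named genes are the FoxO members, *Thrb* and *Thra*, up to 6 genes per list called for T3 in wild type, those called in the difference of responses, the nearest coding neighbours, and the 3 most correlated genes per member. Genes outside that rule (*Pik3cd*, *Foxn2*, *Foxm1*, *Foxn3*, *Trp53inp1*, *Lars2*, marker genes and the uncalled list genes) were chosen after their values were seen. The members and gene lists were chosen with earlier results of these data known. Figures used Python 3.11.15 with pandas 2.3.3, numpy 2.4.6, scipy 1.17.1 and matplotlib 3.10.9.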

Additional observations from a re-analysis of the deposited data

Results flagged for a closer look

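The T3 response of *Foxo6* differed between genotypes by −1.17 on the log2 scale (*Thrb*-KO minus wild type), by the test of the difference itself (limma adjusted p 0.00272), with every hyperthyroid library above every hypothyroid library in both genotypes. No library of any FoxO gene stood far enough from its group to be singled out by Dixon's test, in 4 genes and 4 groups.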

How the results depend on the processing

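The *Foxo6* rise with T3 and its difference between genotypes kept their direction and their call in every alternative run. Leaving out 1 library at a time gave 2.12 to 2.40 for the wild-type response, 1.07 to 1.16 in *Thrb*-KO and −1.29 to −1.005 for the difference, and the replicate block gave 2.29, 1.12 and −1.17. The genotype differences of *Foxo6* sat at the 1.5-fold limit. In hypothyroid mice the call was lost, leaving 0 FoxO genes called, with CPM scaled by TMM (0.58) and in replicates 1 and 2 alone (0.28). Leaving out 1 library gave 0.42 to 0.70 and 0 to 1 called genes, and the call was lost without hypothyroid wild-type replicate 3 or 4 or hypothyroid *Thrb*-KO replicate 2, 3 or 4. In hyperthyroid mice *Foxo6* was called, so that 1 FoxO gene passed, under edgeR with TMM (−0.68), edgeR with DESeq2 size factors (−0.69), DESeq2 (−0.69), CPM scaled by TMM (−0.67), a pseudocount of 0.1 (−0.60), no fold limit (−0.58), replicates 1 and 2 alone (−0.66), the replicate block (−0.59) and the study's unadjusted test (−0.61). Leaving out 1 library gave −0.69 to −0.50 and 0 to 1 called genes, with a call without hyperthyroid wild-type replicate 2 or 3 or hyperthyroid *Thrb*-KO replicate 1 or 5. The replicate block changed no other call of a FoxO gene.

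Uncalled values of the other members changed sign. In wild type the T3 difference of *Foxo3* was 0.020 under edgeR with TMM, 0.029 with DESeq2 size factors, 0.027 under DESeq2, 0.012 with CPM scaled by TMM and 0.11 in replicates 1 and 2 alone, and −0.25 to 0.20 when 1 library was left out. Replicates 3 to 5 alone gave −0.13 for the *Foxo1* response in wild type, and 0.17 for *Foxo1* and 0.13 for *Foxo3* in the difference of responses. Replicates 1 and 2 alone gave hyperthyroid genotype differences of −0.13 for *Foxo1* and −0.027 for *Foxo3*. The hypothyroid genotype difference of *Foxo4* was 0.089 in that set and 0.021 with the replicate block. Leaving out 1 library gave ranges across 0 of −0.0067 to 0.097 for *Foxo1* under T3 in *Thrb*-KO, −0.38 to 0.075 for *Foxo3* in the difference, −0.087 to 0.038 for *Foxo4* in hypothyroid mice, and −0.00070 to 0.28 for *Foxo1* and −0.15 to 0.30 for *Foxo3* in hyperthyroid mice. The cause of these changes was not tested.

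Within 100 kb, 2 FoxO genes had a pituitary peak, 3 a cortex peak and 2 an ATAC peak. The shares of all genes were 70.9%, 63.1% and 18.4%. Inside the gene body, 1 FoxO gene had a cortex peak, beside 20.7% of all genes. Within 20 kb, where the peaks shared with ATAC are those of *Foxo6*, 0 FoxO genes kept one when 1 TRβ peak alone had to span 0.5 or more of the ATAC peak. With 1 difference allowed, 0 had a direct repeat in a peak within 20 kb. Over all genes the called numbers were 2536 with no fold limit beside 1244 for T3 in wild type, 235 beside 133 in *Thrb*-KO, 901 beside 397 in hypothyroid and 1586 beside 639 in hyperthyroid mice. Scaling CPM by TMM moved the higher share of calls from 40.9% to 55.1% for T3 in wild type and from 52.3% to 38.9% for hyperthyroid genotype differences. For T3 in wild type edgeR and DESeq2 each called 5 targets beside 3 with limma. With the replicate block 4 targets were called there, and 3 in the difference beside 2, in each case through *Trp53inp1*. *Irs1* lost its call with only the groups compared, *Sgk1* in replicates 3 to 5 alone, and *Pdk4* with only the groups compared and without hypothyroid wild-type replicate 3. Another transcript per member could not be tried, as the table holds 1 each. The lowest FoxO value rested on 111 reads, for *Foxo6* in hypothyroid wild-type replicate 4. The part of depth in the calls was not tested.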
